A study of Mus musculus with 12 samples.

Results

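The regions described here are CpG-poor stretches of the mouse genome that carried little cytosine modification in control retina and more of it after deletion of the Tet genes. They were chosen by their deposited group means in whole-genome bisulfite sequencing (WGBS), which reads 5-methylcytosine (5mC) and 5-hydroxymethylcytosine (5hmC) together. A member lies on an autosome, has a mean level below 20% in the controls and a higher mean in the mutants, and holds fewer than 5 CpGs per 100 bp. The rule found 5856 members, 3.11% of the 188,451 autosomal regions that rose and part of 193,836 WGBS regions in all. Members covered 2918 kb and 68,257 CpGs. Although such regions may be called unmethylated, the median control level was 14.6% and 190 members (3.24%) lay below 5%, so they are called low-methylated here.

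Whole retinas were taken at postnatal day 21 from mice of the strain C57 BL/6J. Controls were labelled WT and, per the study, came from Cre- breeders. Tet tcKO animals carried loxp/loxp alleles of Tet1, Tet2 and Tet3 and Chx10::Cre-GFP, a transgene active in retinal progenitor cells with known mosaic expression. Per the study's methods each sample pooled retinas of 2 animals. Cells that do not arise from retinal progenitors, such as vessels and microglia, are not targeted by this transgene. Each group had 3 WGBS libraries and 3 libraries of bACE-seq, which reads 5hmC alone. The deposited lists give 1 mean level per group and region, so the spread between libraries and the coverage of each region are not analysed here. Every value below is a description, and no test or interval over libraries could be made. In bulk retina, fewer cells of a type and a changed level per cell cannot be told apart, and the study describes fewer rods and more cones in Tet tcKO retinas.

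Most CpGs in mammalian genomes are methylated, and low-methylated sequence is found mainly at CpG islands, which overlap many promoters, and at CpG-poor regulatory elements, where bound transcription factors keep methylation low. TET enzymes oxidise 5mC to 5hmC and further forms, which can be replaced by unmodified cytosine. During retinal development many genes of photoreceptors, the light-sensing rods and cones, lose methylation as these cells mature.

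Sequences below are from GRCm38 (mm10), plus strand, with the CpG sites of the reference in capitals. To show what this kind of sequence looks like, the central 300 bp of 7 members are given. They are the longest member, the longest member at a protein-coding gene, 3 members at photoreceptor genes, the largest rise among members with at least 10 CpGs, and the lowest control level. None of the 7 windows touches an annotated exon, and they hold between 3 and 9 CpGs each.
Upstream of Mir124a-1hg, chr14:64579912-64580211: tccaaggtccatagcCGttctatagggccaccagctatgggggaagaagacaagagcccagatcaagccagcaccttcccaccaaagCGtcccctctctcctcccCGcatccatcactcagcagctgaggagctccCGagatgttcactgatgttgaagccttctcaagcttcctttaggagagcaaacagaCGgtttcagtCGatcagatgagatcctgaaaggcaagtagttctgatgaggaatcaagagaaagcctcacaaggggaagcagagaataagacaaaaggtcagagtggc
Crx intron, chr7:15875479-15875778: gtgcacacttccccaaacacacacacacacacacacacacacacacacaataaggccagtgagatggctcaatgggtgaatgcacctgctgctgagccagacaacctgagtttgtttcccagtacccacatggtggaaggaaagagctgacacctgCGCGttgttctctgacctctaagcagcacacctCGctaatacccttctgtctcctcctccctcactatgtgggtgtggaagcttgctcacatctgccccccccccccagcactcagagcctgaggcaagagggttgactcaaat
Prdm1 intron, chr10:44477304-44477603: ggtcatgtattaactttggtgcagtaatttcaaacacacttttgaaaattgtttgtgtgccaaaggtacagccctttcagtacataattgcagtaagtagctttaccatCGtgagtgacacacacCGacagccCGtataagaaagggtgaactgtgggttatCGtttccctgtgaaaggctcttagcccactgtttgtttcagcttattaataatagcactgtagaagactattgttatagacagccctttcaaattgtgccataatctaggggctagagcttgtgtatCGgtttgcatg
Rdh12 intron, chr12:79215801-79216100: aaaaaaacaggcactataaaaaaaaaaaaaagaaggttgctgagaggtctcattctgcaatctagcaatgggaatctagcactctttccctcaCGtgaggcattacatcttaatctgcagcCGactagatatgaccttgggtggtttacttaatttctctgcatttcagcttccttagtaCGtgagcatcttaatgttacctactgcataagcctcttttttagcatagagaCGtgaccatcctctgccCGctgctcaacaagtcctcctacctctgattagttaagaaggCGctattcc
Cngb1 intron, chr8:95243038-95243337: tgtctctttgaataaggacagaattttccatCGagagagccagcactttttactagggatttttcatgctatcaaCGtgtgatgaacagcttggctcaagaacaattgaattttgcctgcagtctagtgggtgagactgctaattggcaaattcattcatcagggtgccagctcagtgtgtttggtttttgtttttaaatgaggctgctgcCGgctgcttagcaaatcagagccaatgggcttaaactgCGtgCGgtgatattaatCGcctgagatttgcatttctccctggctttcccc
Fyn intron, chr10:39536334-39536633: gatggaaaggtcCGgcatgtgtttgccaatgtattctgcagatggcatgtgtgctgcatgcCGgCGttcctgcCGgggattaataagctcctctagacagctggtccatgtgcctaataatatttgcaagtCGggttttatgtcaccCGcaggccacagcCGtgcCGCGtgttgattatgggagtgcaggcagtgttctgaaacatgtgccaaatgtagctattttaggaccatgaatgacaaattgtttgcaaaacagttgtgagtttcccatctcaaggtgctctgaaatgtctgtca
Pea15a intron, chr1:172205063-172205362: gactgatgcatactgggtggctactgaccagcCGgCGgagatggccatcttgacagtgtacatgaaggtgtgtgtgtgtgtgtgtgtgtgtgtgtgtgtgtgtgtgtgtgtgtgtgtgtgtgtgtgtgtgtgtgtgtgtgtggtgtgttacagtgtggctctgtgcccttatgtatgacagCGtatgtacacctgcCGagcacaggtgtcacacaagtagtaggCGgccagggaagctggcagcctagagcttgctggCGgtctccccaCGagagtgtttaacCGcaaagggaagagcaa

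The members moved from a low to an intermediate level. Their median level was 29.6% in Tet tcKO, against 14.6% in Cre-, and the median rise was 14.2 percentage points, with 80% of the members between 7.37 and 34.0 points. Weighted by CpGs, the means were 14.1% and 31.4%. In Tet tcKO, 1044 members (17.8%) were still below 20%, 3588 lay between 20% and 40%, and 583 reached 50% or more, of which 60 reached 70%. The distribution of both levels shows the controls piled against the 20% limit and the mutants spread over the range up to 83.7%. Of the 5903 autosomal CpG-poor regions below 20% in Cre-, 99.2% rose. Most of the list rose: 188,451 of its 193,836 regions on all chromosomes were autosomal gains. Since the rule used both levels, these values describe the choice and nothing is read from them. Near the limit, the 3 members closest to 20% in Cre- rose by 27.6, 21.1 and 24.5 points, and the 3 CpG-poor gains just above it by 19.6, 10.6 and 12.6 points. These few regions do not stand for their classes. Over all CpG-poor gains the median rise was 15.7 points at control levels of 10% to 20% and 21.7 points at 20% to 30%. At the density limit, the 3 members closest to 5 CpGs per 100 bp rose by 9.1, 8.37 and 9.03 points, and the 3 low-methylated regions just above it by 8.79, 11.9 and 7.42 points.

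**Figure D1:**
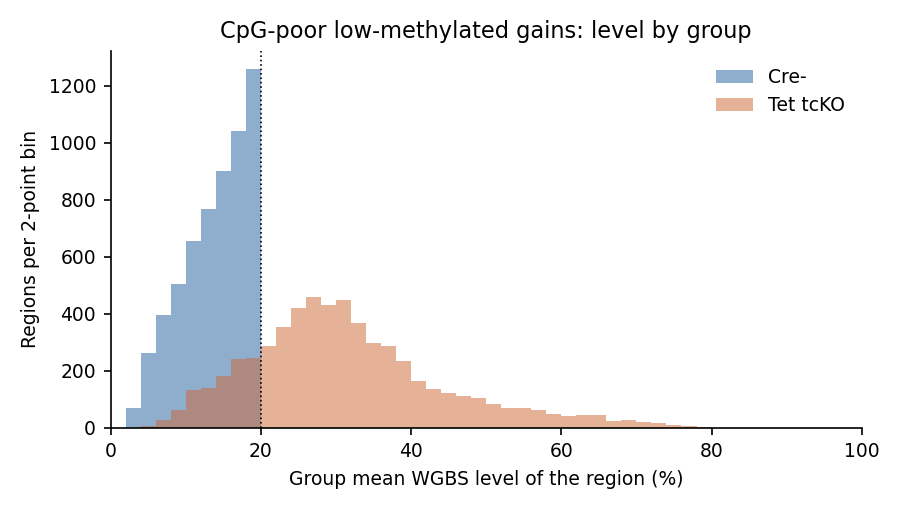
Number of members (vertical axis) by their mean WGBS level in percent (horizontal axis, bins of 2 points) in Cre- (blue) and Tet tcKO (orange); the dotted line is the 20% limit that chose the members. Controls lie below 20% by rule, and 1044 of 5856 members stay below it in Tet tcKO.

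The rise differed with CpG density. Members with fewer than 1 CpG per 100 bp (185 members) rose by a median of 29.7 points to 45.8%, and those with 4 to 5 CpGs per 100 bp (771 members) by 8.34 points to 20.9%. The 3 classes between followed in order, with median rises of 21.2, 14.1 and 10.7 points. The number of CpGs in a member made less difference: the median rise was 15.1 points with 4 or 5 CpGs and 14.4 points with 20 to 49 CpGs. The 2316 low-methylated gains with at least 5 CpGs per 100 bp, for comparison, rose by a median of 4.39 points, from 6.72% to 11.3%. Control levels also differed along this axis, from a median of 16.5% in the sparsest members to 11.6% in the densest, and the part this plays in the rise was not tested.

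Members were drawn from every autosome, with 27.9 to 36.1 members per 1000 gains. They occupied 496 of 501 intervals of 5 Mb that held a gain, with a median of 11 members per interval and at most 39, on chromosome 19. Next to a member, the nearest other gain was a median of 1636 bp away, and 36.3% of members had one within 1 kb. The same share was 30.4% over all autosomal gains.

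Of the 78 members of 2 kb or more, the longest spanned 13,958 bp upstream of Mir124a-1hg (chr14:64573084-64587041), the host transcript of a copy of miR-124, a microRNA abundant in neurons. Over its 189 CpGs the Tet tcKO mean reached 52.7%, from 18.2%, a rise of 34.5 points. A second member of 5804 bp on the other side of the same start site (chr14:64591480-64597283) went from 19.3% to 60.2%. Between them, 162 bp from the miR-124 hairpin, another member (chr14:64590903-64591183) went from 5.5% to 11.9%. The host gene of another copy, Mir124-2hg on chromosome 3, held the third longest member (6098 bp, 80 CpGs), which contains the hairpin and went from 14.2% to 48.6%. Around the remaining copy, Mir124a-3 on chromosome 2, the nearest member was 67,898 bp away. Broad members were thus found at 2 of the 3 miR-124 loci.

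Crx encodes a homeodomain factor that drives photoreceptor gene expression and held the second longest member. This region (chr7:15871223-15880036, 8814 bp) spans the start site and much of the gene, and its 68 CpGs averaged 15.6% in Cre- and 67.7% in Tet tcKO. The rise of 52.1 points was the second largest among the 78 long members, after 57.1 points at Rtn4, which encodes the neurite growth inhibitor Nogo. Rtn4 and the members named next were chosen after their values were seen. Among the next longest members, that in Ybx3, a gene of a nucleic-acid-binding protein, went from 18.2% to 61.8%. Rom1, a structural protein of photoreceptor outer segments, had 19.8% in Cre- and 63.8% in Tet tcKO over 3973 bp. At Mgarp, which encodes a mitochondrial protein, the levels were 19.3% and 43.6%, and at Drd4, a dopamine receptor gene, 17.7% and 28.6%. The 78 long members had a median rise of 28.3 points, against 9.64 points in the 1044 members shorter than 200 bp.

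The 5 members with the largest area statistic, the authors' score of a region's summed evidence, included 3 at genes of developmental transcription factors. The first was the Mir124a-1hg domain. A member of 4696 bp over Fezf2 (chr14:12341885-12346580), a zinc finger factor of forebrain and retinal neurons, covered the start site and coding exons and went from 13.3% to 27.4% over 224 CpGs. Next to Prox1, a homeobox gene of horizontal cells, 3290 bp inside the antisense transcript Prox1os went from 10.1% to 28.0% over 152 CpGs. In Tbx2, a T-box gene, 3578 bp over a coding exon went from 18.4% to 32.2%. The last, at Nr2f6 and Ocel1 on chromosome 8, went from 13.9% to 33.1%. These 4 members outside the miR-124 locus had 4.3 to 4.98 CpGs per 100 bp, close to the density limit, and rose by 13.7 to 19.2 points, against the median of 14.2 points over the members.

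**Figure D2:**
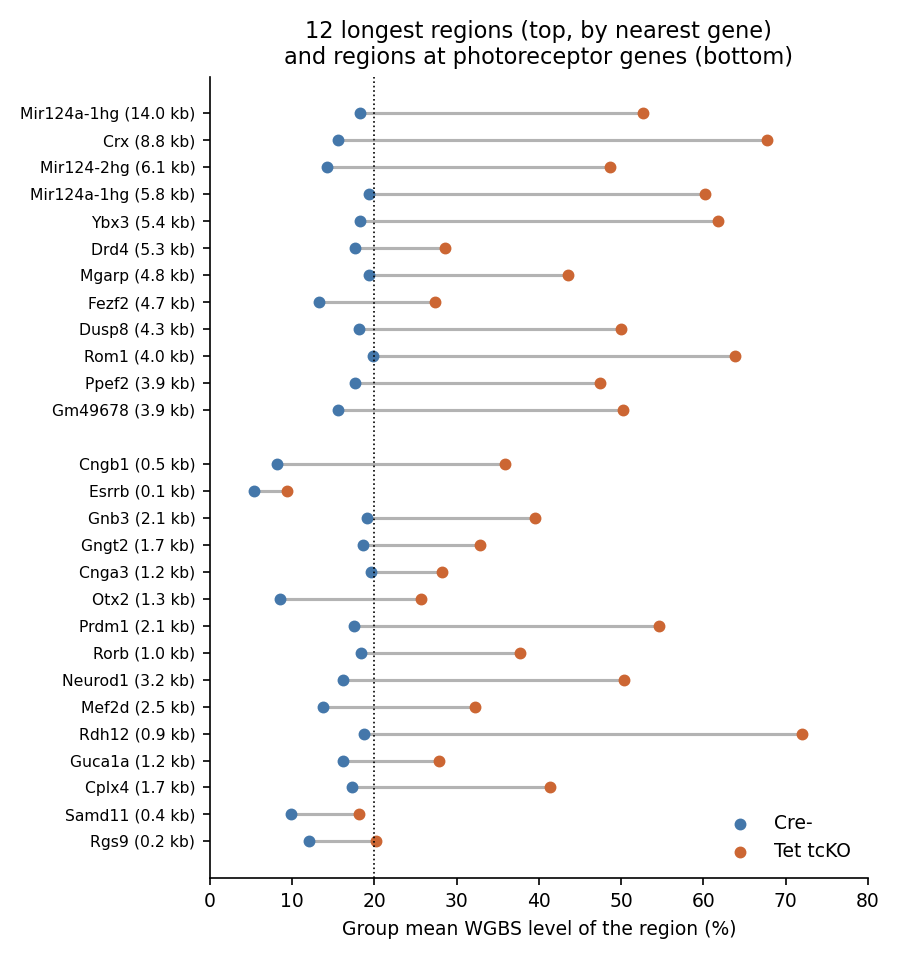
Mean WGBS level in percent (horizontal axis) in Cre- (blue) and Tet tcKO (orange) for the 12 longest members, named by the nearest gene, and below them for the member with the largest area statistic at each gene of the rod, cone and shared photoreceptor lists, with lengths in kb. The dotted line is the 20% limit. Crx (15.6% to 67.7%) and Rdh12 (18.7% to 72.0%) span the widest ranges, Esrrb (5.35% to 9.35%) the narrowest.

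The 5 largest rises rest on 4 to 11 CpGs each. A region of 386 bp on chromosome 9 (chr9:94017652-94018037), 520,237 bp from the nearest start site, went from 3.29% to 73.9%, but holds 4 CpGs. The second, upstream of Phip on chromosome 9, went from 6.53% to 75.3% over 7 CpGs. The third lies in an intron of Fyn (chr10:39536331-39536637), a tyrosine kinase gene, and rests on 11 CpGs, which went from 7.26% to 74.9%. The remaining 2, also on chromosome 9, held 4 CpGs each and rose by 66.7 and 62.6 points. Of these 5 members 2, those upstream of Phip and near Gm2109, lie in the interval from 80 to 85 Mb of chromosome 9, which holds 138 autosomal WGBS losses, the most of any 5 Mb interval and against 53 in the next. It holds 10 members, and without them the median rise was again 14.2 points. In all, 122 members rose by 50 points or more, spread over 103 of the 5 Mb intervals, with a median of 6 CpGs.

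Members lay both close to start sites and far from them. Of all members, 2324 (39.7%) had their midpoint within 2 kb of a start site, against 10.5% of all autosomal gains, 1715 (29.3%) lay in gene bodies and 1817 (31.0%) were intergenic. For the low-methylated gains of higher CpG density the promoter share was 67.2%, and for CpG-poor gains from a higher level it was 8.68%. By distance to the start site, 3.36% of members lay within 200 bp and 16.1% at 500 to 1000 bp. Per 100 bp of distance these were 98.5 and 189 members, with 156 at 200 to 500 bp and 71.4 at 1 to 2 kb. Of the CpG-dense regions, 27.0% lay within 200 bp, 313 per 100 bp, and this density fell with each step outwards. Of the members, 21.5% lay over 50 kb away, against 5.66% of the CpG-dense regions. Promoter members started lower and rose less, from a median of 13.2% by 11.3 points, than members in gene bodies (15.7%, 17.8 points) and between genes (14.9%, 16.4 points). The 3 members with at least 10 CpGs and the lowest control levels were all near start sites. They lay at Pea15a (3.02% in Cre-, 21.0% in Tet tcKO), Zfp772 (3.11% and 7.27%) and Lpin2 (3.22% and 8.1%).

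**Figure D3:**
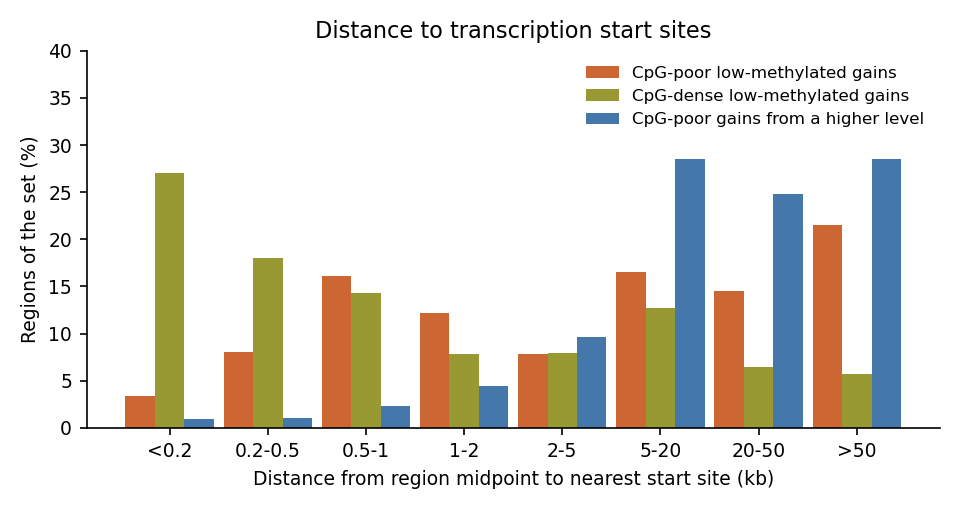
Share of regions in percent (vertical axis, bars from 0) by distance from the midpoint to the nearest annotated start site in kb (horizontal axis, bins of unequal width) for members (orange), CpG-dense low-methylated gains (olive) and CpG-poor gains from a higher level (blue). Members hold 16.1% at 0.5 to 1 kb and 21.5% beyond 50 kb, and CpG-dense regions 27.0% within 0.2 kb.

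Promoter members lay beside CpG-rich sequence on the side of their start site. With every promoter member turned so that its start site lay to the left, CpG density averaged 6.37 per 100 bp at 500 to 1000 bp on the side of the start site and 1.35 on the other. For CpG-poor gains from a higher level within the same 2 kb the values were 2.94 and 1.18. At 1000 to 2000 bp on the side of the start site, density was 4.02 for members and 3.34 for these gains. The sets were not matched for distance to the start site. Turning places every start site on the left, so more CpGs on that side follow in part from it. The share of bases inside a 5hmC loss, a bACE-seq region with a lower mean in Tet tcKO, changed across the member in the opposite sense. It was 11.5% on the side of the start site, 25.4% at the centre and 49.5% on the far side. The lowest value, 7.64%, lay 450 bp from the centre towards the start site. Members away from promoters had a dip instead of a step, with 16.9% at the centre and 34.9% and 36.1% at 500 to 1000 bp on each side. The CpG-dense low-methylated gains had 20.6% at the centre and 33.7% and 33.9% on the sides. A dip was thus not particular to the members. Gains from a higher level showed a peak, 68.4% at the centre and 45.1% on both sides. Those within 2 kb of a start site were also uneven, with 36.3% on its side, 72.2% at the centre and 52.6% on the far side. A region with little modification in Cre- has little 5hmC to lose, so a low value at the centre follows in part from the rule, which did not use the flanks.

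**Figure D4:**
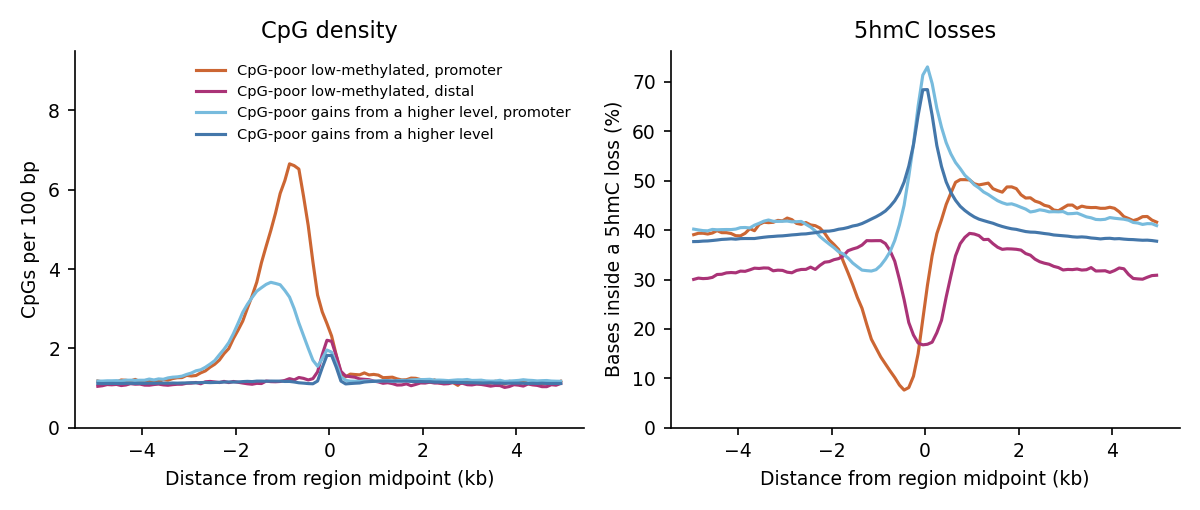
CpGs per 100 bp (left) and percent of bases inside a 5hmC loss (right) in bins of 100 bp up to 5 kb from the midpoint. Promoter regions, from the members (orange) and from the gains of a higher level (light blue), are turned so that the start site is on the left, while distal members (purple) and all CpG-poor gains from a higher level (dark blue) run by genome position. The orange line has a CpG peak on the left and a 5hmC trough of 7.64% beside it, and the purple line dips to 16.9% at the centre.

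Members touched a 5hmC loss less often than the gains as a whole, in counts that were not tested. Of the members, 2741 (46.8%) shared at least 1 bp with one, against 81.7% of all autosomal gains, and 1095 (18.7%) had at least 50% of their bases inside 5hmC losses, against 67.9%. By bases the shares were 22.1% and 66.0%. In the CpG-dense low-methylated gains the corresponding shares were 33.3%, 21.9% and 32.4%, so low overlap was not particular to the members. The share differed with the control level among CpG-poor gains, from 26.5% below 10% and 52.2% between 10% and 20% to 66.8% between 20% and 30% and 84.7% between 40% and 60%. It was 87.3% between 60% and 80% and 82.0% above 80%. It also rose with the number of CpGs, from 25.0% with 4 or 5 to 80.2% with 20 to 49. The 3115 members without a 5hmC loss rose by a median of 14.8 points and the 2741 with one by 13.6 points. By number of CpGs these medians were 16.3 and 12.4 points with 4 or 5 CpGs, 14.7 and 13.7 with 6 to 9, 13.5 and 13.8 with 10 to 19, and 14.8 and 14.2 with 20 or more. A missing bACE-seq region does not show unchanged 5hmC, since the assays were called separately.

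The bACE-seq list holds regions called as changed, and 592,697 of its 592,906 regions were losses. Where one overlapped a member, lower 5hmC in Tet tcKO was therefore nearly fixed by the list, and the same holds for all gains. Over 2742 members the overlapping regions averaged 14.8% 5hmC in Cre- and 3.61% in Tet tcKO, so 24.4% was kept, beside 25.5% over all gains. The WGBS level of these members in Cre- was 15.1%, but both levels come from regions of different span, so their ratio is no share of the same CpGs. In the 349 members whose bACE-seq region shared at least 50% of both spans, the 5hmC level was 9.36% and the WGBS level 15.9% in Cre-, so 59.0% of the modification was read as 5hmC. In Tet tcKO, the values were 2.18% and 31.8%. The corresponding share for CpG-poor gains was 51.3% at control levels of 20% to 30% and 27.0% at 60% to 80%. Such pairs exist only where a 5hmC change was called, so these shares do not describe the remaining regions, among them most of the 5856 members. The part of this selection in the contrast between control levels was not tested. Both levels are group means of separate libraries, and the unconverted background of bACE-seq was not subtracted.

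Of 20 genes shared by rods and cones, 12 (60%) had a member in the gene or within 5 kb, against 19.0% of 20,780 autosomal protein-coding genes (16.6% of those whose span with flanks is 20 to 30 kb, the range of the list's median, 24.2 kb). These 17 members had a median rise of 18.5 points, and 10 exceeded the median of the members. The list was chosen with earlier results known. Otx2, the homeodomain factor upstream of Crx, had 4 members, of which the one with the largest area statistic (chr14:48667511-48668795) went from 8.57% to 25.7%, while the others rose by 3.22, 9.94 and 21.5 points. Prdm1, a repressor active in young photoreceptors, went from 17.5% to 54.6% in an intron. Neurod1, a basic helix-loop-helix factor, went from 16.2% to 50.4% over 3187 bp that reach past its 3′ end into Cerkl, and from 4.88% to 11.1% in a second member.

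Mef2d, a MADS-box factor of photoreceptors, had a member upstream of its start site that went from 13.8% to 32.2% and one 1814 bp downstream that went from 5.58% to 45.0%. Rdh12, a retinol dehydrogenase of photoreceptors, had an intronic member that went from 18.7% to 72.0%, the largest rise among these genes. Rorb, a nuclear receptor of rod development, went from 18.4% to 37.7% over 5 CpGs. Cplx4, a ribbon synapse complexin, went from 17.3% to 41.3%. Smaller rises were found at Guca1a and Guca1b, guanylate cyclase activators that share a member (16.2% to 27.8%), at Samd11 (9.86% to 18.1%) and at Rgs9 (12.1% to 20.2%).

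At rod and cone genes proper the share with a member was nearer to that of all genes. Of 14 rod genes, 3 (21.4%) had one: Rom1, the channel subunit gene Cngb1 (8.18% to 35.9%) and the nuclear receptor gene Esrrb (5.35% to 9.35%). Nrl and Nr2e3, the rod fate factors, had gains but no member. Of 10 autosomal cone genes, 3 (30.0%) had one: the transducin subunit genes Gnb3 (19.1% to 39.5%) and Gngt2 (18.6% to 32.8%) and the channel gene Cnga3 (19.6% to 28.2%). All 14 rod and 10 cone genes had at least 1 autosomal gain of any kind, 173 and 68 in all, beside 78.5% of all autosomal protein-coding genes.

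Genes of the other cell types carried members with smaller median rises. A member was found at 1 of 12 bipolar, 3 of 12 Muller glia, 4 of 12 amacrine, 3 of 6 horizontal, 3 of 12 ganglion and 4 of 11 progenitor genes. For cells that are not made from retinal progenitors, it was found at 2 of 8 microglia and 1 of 8 endothelial genes, and for housekeeping genes at 4 of 9. Against 19.0% of all autosomal protein-coding genes, the share was 50.0% in the horizontal, 44.4% in the housekeeping, 36.4% in the progenitor and 33.3% in the amacrine list, so shares above that of all genes were not particular to the photoreceptor lists. The median rise of the members at these lists ran from 5.7 points in the microglia list (1 member, shared by C1qa and C1qc) to 12.5 points in the housekeeping list, each below the 14.2 points of all members. In Pax6, the eye-field factor kept by amacrine cells, 5 members went to levels between 13.2% and 31.8%. In Onecut1, of horizontal cells, 4 members ended between 16.1% and 27.0%. At Lhx4, of bipolar cells, the 3 members ended at 15.1%, 17.0% and 32.5%. Glul, the glutamine synthetase of Muller glia, went from 13.1% to 31.9%, and Sox9, a glial and progenitor factor, from 10.5% to 22.9%. The rod and cone lists, with 3 members each, had median rises of 27.7 and 14.2 points. Members also differed in CpG density, along which the rise differed. Those at Crx and Rdh12 held 0.771 and 1.09 CpGs per 100 bp, and those in Pax6 between 2.29 and 4.55. Dense members were found at photoreceptor genes too, such as Samd11 with 3.75. The part of density in the differences between lists was not tested. These lists are short, and the differences between them were not tested.

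By number alone, long genes led. The 10 protein-coding genes with the most members were Gm20388 (28 members in 4445 kb), Lrmda (9), Fgfr2 (8), Cacna2d3 and Zfhx3 (7 each), and Astn2, Myt1l, Gm37013, Gm37388 and Gm42416 (6 each). Gm20388 is a gene model that spans many other genes, and the last 3 overlap each other and share their members. The locus annotated as Fgfr2 spans 2971 kb. Its member with the largest area statistic lay nearest to the start site of another gene, Gm44546. In Myt1l, a neuronal zinc finger gene, the member with the largest area statistic went from 11.4% to 34.2%. In Zfhx3, a homeobox gene, it went from 15.1% to 42.2%. In Cacna2d3, a calcium channel subunit gene, it went from 19.8% to 56.1%, and in Astn2, a neuronal adhesion gene, from 13.6% to 53.5%. Genes with a locus over 100 kb had a member in 39.0% of cases and genes under 20 kb in 11.7%.

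Sequence around the members' midpoints was close to that of all autosomal gains in GC content and differed more in CpG ratio and repeats. In windows of 300 bp, GC content had a median of 48.0%, against 47.3% over all autosomal gains, and the ratio of observed to expected CpGs was 0.379, against 0.321. Repeats, as masked in the reference, took 11.4% of bases, against 14.2%. In CpG-poor gains from a higher level the GC median was 47.0%, the CpG ratio 0.31 and the repeat share 13.8%. The letters TAATCC, the core bound by CRX and OTX2, were found on either strand in 17.8% of members and in 15.2% of all gains. The excess was present in each of 5 classes of GC content. The shares were 20.7% against 18.1% below 40% GC, 19.7% against 18.9% at 40% to 45% and 11.3% against 6.3% above 55%. Among members that rose by 30 points or more (792), the core was found in 24.2%, and among those that rose by less than 10 points (1456), in 14.5%. These groups also differed in GC content, with medians of 44.3% and 51.3%, and that part was not tested. Of the windows printed above, that in Fyn holds 1 core, read on the other strand as ggatta.

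Other motifs differed in direction. TAATTA, a core of other homeodomain factors, was found in 13.3% of members and 11.6% of all gains, and in 20.8% of members with rises of 30 points or more. TGCTGA, part of the site of NRL and MAF factors, was found in 23.1% and 24.6%, and AGGTCA, the repeat unit of nuclear receptor sites, in 18.3% and 19.7%. In members with rises of 30 points or more against those below 10 points, the shares were 26.3% against 20.1% for TGCTGA. For AGGTCA they were 23.1% against 16.4%. The E-box CAGATG was found in 24.4% and 26.6%, and the E-box CAGCTG in 20.7% and 20.4%. Between large and small rises these E-boxes stood at 30.1% against 19.5% and 23.5% against 18.1%. A higher share in large rises was thus not particular to the CRX/OTX2 core. TGANTCA (AP-1) was found in 8.23% and 9.2%, GTTGCCA (part of RFX sites) in 3.69% and 3.56%, and CCGGAAG (ETS) in 2.17% and 2.11%. From small to large rises, AP-1 went from 6.8% to 9.22% and RFX from 3.37% to 4.92%, while ETS went from 3.02% down to 1.52%. GGGCGG, the GC box of CpG-rich promoters, was found in 11.2% of members and 7.66% of all gains, but in 4.55% of members with large rises. The MEF2 consensus was found in 5.11% and 4.85%, and in 8.96% of members with large rises. The NFI consensus was found in 5 members.

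The consensus of CTCF, the factor of chromatin loop anchors, was more frequent in members than in all gains. It was found in 51 members (0.871%) and in 0.204% of all autosomal gains, but in 0.864% of the CpG-dense low-methylated gains, so this was not particular to the members. For CpG-poor gains from a higher level it was 0.175%. The share was higher in members than in all gains in each GC class. Of these 51 members, 82.4% lay outside promoters. They were short, with a median of 237 bp against 392 bp for members without it, and went from a median of 14.2% to 29.3%. Among distal members the consensus was found in 1.77% of those with rises of 10 to 20 points and in 0.289% of those with rises of 30 points or more. A match is a description of letters and does not show binding in retina.

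**Figure D5:**
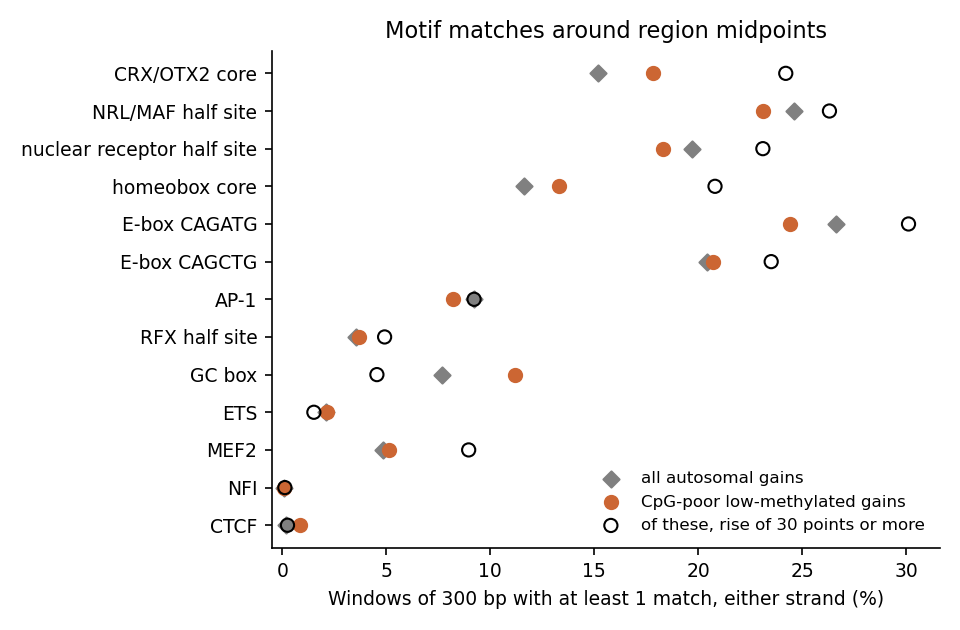
Percent of 300 bp windows around region midpoints with at least 1 match on either strand (horizontal axis) for each motif (vertical axis) in all autosomal gains (grey diamonds), members (orange) and members that rose by 30 points or more (open circles). The CRX/OTX2 core stands at 15.2%, 17.8% and 24.2%, and CTCF at 0.204%, 0.871% and 0.253%.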

How the data were processed

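DNA from whole retinas was profiled by WGBS and bACE-seq in 12 libraries, 3 of each genotype per assay as labelled. Per the submitters' processing notes and the study's methods, reads were trimmed with Trim Galore (0.4.4), aligned to mm10 with Bismark (0.18.2), filtered with SAMtools (1.15.1) and Picard, and CpG levels extracted with MethylDackel (0.6.1). The authors called regions with DSS, which smooths levels along the genome and blurs boundaries. Each deposited list gives the position, number of CpGs, the authors' mean level of each group as a fraction (printed as percent), a difference and an area statistic. The difference and the deposited area statistic, a score summed over a region, are the authors' own comparison. The score was used here to rank members and the difference was not used.

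Changes were computed as Tet tcKO minus Cre-. Members and gene lists were chosen with earlier results of these data known. Overlap required 1 bp. Promoters reached 2 kb to either side of start sites in the GENCODE M21 basic annotation (21,938 protein-coding and other long noncoding genes, 32,093 in all), and loci were genes with 5 kb on each side. Regions were named by rank of area statistic, rise, length, lowest control level and closeness to the limits, and genes by number of members and by list. All 5856 members began on a CpG of GRCm38, and 99.1% held the listed number of CpGs. Of autosomal CpG-poor regions below 20% in Cre-, 99.2% rose, in a list where most regions rose. Levels of 5hmC were averaged over overlapping bACE-seq regions by CpGs. Motifs were searched on both strands, counting a window once. Scripts ran in Python (3.11.15) with pandas (2.3.3) and numpy (2.4.6), and were tested on simulated regions.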

Additional observations from a re-analysis of the deposited data

How the results depend on the processing

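No paired analysis was possible because the lists hold 1 mean per group, and leaving out a replicate was likewise not possible. The number of members, 5856, was 1230 with control levels below 10%, 14877 below 30%, 3792 below 3 CpGs per 100 bp, 1721 with rises of at least 20 points and 2667 with at least 10 CpGs. Under these limits, and a density below 10 CpGs per 100 bp, the median rise (14.2 points) was 8.77, 18.8, 17.5, 13.8 (at least 10 CpGs) and 12.1 points, and 17.3 as a mean weighted by CpGs. The share with a 5hmC loss (46.8%) was 18.7% with at least 50% of bases covered, 27.0% for losses of at least 10 points, 65.4% with at least 10 CpGs, 41.4% for rises of at least 20 points, 26.5% and 59.0% under the lower and higher control limit, and 44.6% under the lower density limit. The 5hmC level in Cre- (14.8%) was 9.36% in pairs sharing at least 50% of each region, 14.2% as a median, and 13.8% and 12.8% with 1 or 2 points of background subtracted, and the ratio of that level to the WGBS level (98.2%, over regions of different span) was then 59.0%, 91.5% and 84.9%. The promoter share (39.7%) was 27.6% and 47.5% for windows of 1 and 5 kb, 36.0% for protein-coding genes only, 57.2% and 28.0% under the control limits and 34.8% and 44.1% under the density limits. The intergenic share (31.0%) was in the same order 33.0%, 28.6%, 37.4%, 24.6%, 34.3%, 34.0% and 28.3%, and 29.3% by bases. The share with the CRX/OTX2 core (17.8%) was 24.0% in the region itself, 12.6% in 200 bp and 25.4% in 500 bp, by the length searched, 16.2% with at least 10 CpGs and 15.8% under the higher density limit. The share of protein-coding genes with a member (19.0%) was 12.9% with no flank and 27.6% with 20 kb. Counts were taken as stable within 1.5 times, and shares, levels and medians within an interval around the main value. That interval treats regions as independent, so it served only as a yardstick and does not measure the spread between libraries or animals. By these limits the other 8 of 55 alternatives did not shift. Among them were 4400 members with rises of at least 10 points, 7374 below 10 CpGs per 100 bp, and leaving out 80 to 85 Mb of chromosome 9. That stretch was chosen after seeing the data. Group means without coverage limit every value: a member with 4 CpGs may rest on few reads, smoothing spreads levels to neighbouring CpGs, and the causes of the shifts listed here were not tested beyond what each limit selects.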
